A study of Mus musculus with 8 samples.

Results

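The proteasome is the protease complex that degrades proteins tagged with ubiquitin, and the 39 mouse genes described here encode its subunits, the chaperones that build its cap and its activators. They are the genes whose symbol is Psma, Psmb, Psmc, Psmd or Psme followed by a number, apart from Psmb8 and Psmb9, and that had at least 10 counts in at least 2 of the 8 libraries. Of 41 such symbols among 30419 gene names in the count table, Psma8, a testis form of an alpha subunit, and Psmb11, the catalytic subunit of the thymus, did not reach that count. The libraries came from early-passage mouse embryonic fibroblasts (MEFs) of E13.5 embryos, and each of the 4 groups had n = 2 libraries, lettered A and B. Both genotypes were compared, each with 0.2 µg/mL doxorubicin or vehicle for 8 h: Dino lox/lox cells, called mutant here, which carry lox sites at both alleles of Dino, a long noncoding RNA gene, and Dino +/+ cells, called WT. The groups were therefore mutant with doxorubicin, mutant control, WT with doxorubicin and WT control. Doxorubicin is a drug that causes DNA breaks, and the study asked how the response to it depends on Dino. The labels do not say whether the letters stand for separate embryos or cultures, so the p-values measure the spread between these libraries, which may be technical.

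The barrel-shaped 20S core of the proteasome has outer rings of alpha subunits, which form a gate, and inner rings of beta subunits, some of which cut proteins. The 19S cap has a base, whose ring of ATPases unfolds the substrate, and a lid, which removes ubiquitin. Other caps, the activators, open the gate without ubiquitin. When proteasome activity is low, the transcription factor NFE2L1 raises the subunit genes together through antioxidant response elements in their promoters, and its relative NFE2L2 acts on the same kind of element under oxidative stress.

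Gene counts summed to 25482805 to 33285171 per library, and the 39 genes held 0.110% to 0.124% of them. CPM below means counts scaled to a common library size after correction with TMM factors. A count of 0 allows up to 3 counts, or 0.0901 to 0.118 CPM, which covers counting error only. The 8 fibroblast markers, among them Col1a2 and Vim, were all detected, and summed to 3742 and 3967 CPM in mutant cells with doxorubicin, 4067 and 4216 CPM in mutant control, 3937 and 4205 CPM in WT cells with doxorubicin and 4147 and 4484 CPM in WT control. On average over both genotypes 4 of them were called lower with doxorubicin and 2 higher, and Pdgfra, a growth factor receptor, had 26.0 and 21.5 CPM in mutant cells with doxorubicin, against 85.2 and 80.8 CPM in mutant control, and 21.3 and 18.0 CPM in WT cells with doxorubicin, against 77.1 and 69.8 CPM in WT control. The 8 macrophage and leukocyte markers were all detected too, and 5 of them were called higher with doxorubicin. They summed to 36.9 and 40.6 CPM in mutant cells with doxorubicin, against 31.4 and 31.5 CPM in mutant control, and to 33.8 and 35.3 CPM in WT cells with doxorubicin, against 23.1 and 24.6 CPM in WT control. The 4 endothelial markers summed to at most 11.1 CPM, of which Tek was called higher with doxorubicin, while Cdh5 and Kdr were not called, Pecam1 had 0 to 2 counts and was not tested, and Hba-a1 and Hbb-b1 of red cells had 0 counts in every library. The part of other cell types in the results was not tested, and in such bulk RNA fewer cells of a type and less RNA per cell cannot be told apart. Sex-linked genes differed between the genotypes: Xist had 6269 to 14368 counts in mutant libraries and 7 to 12 in WT libraries, and the Y-linked Ddx3y had 1467 to 2183 counts in mutant libraries and 13513 to 17441 in WT libraries. Mutant libraries thus held both Xist and Y-linked transcripts, and the labels give neither the sex of the embryos nor whether sexes were mixed. Genotype and the sex or mix of the embryos therefore cannot be told apart, and Psmd10 is the only X-linked gene of the 39.

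The promoters of 4 of these genes are shown because they hold the core of an antioxidant response element and their genes moved in different directions. Each is the RefSeq window on GRCm38.p6, from 250 bases before to 50 bases after the start of the gene, read 5′ to 3′ on the strand of the gene, with the core TGACNNNGC or its other-strand form GCNNNGTCA in capitals. They lie at chr11:30771525-30771824 (Psme4, plus strand), chr5:123227940-123228239 (Psmd9, plus strand), chr11:107479278-107479577 (Psmd12, plus strand) and chr14:54617946-54618245 (Psmb5, minus strand).
Psme4: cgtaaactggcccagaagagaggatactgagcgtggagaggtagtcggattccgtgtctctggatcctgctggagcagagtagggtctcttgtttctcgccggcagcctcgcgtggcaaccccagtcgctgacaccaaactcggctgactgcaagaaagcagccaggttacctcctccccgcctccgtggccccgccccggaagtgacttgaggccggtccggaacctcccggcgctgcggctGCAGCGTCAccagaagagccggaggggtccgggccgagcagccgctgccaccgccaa
Psmd9: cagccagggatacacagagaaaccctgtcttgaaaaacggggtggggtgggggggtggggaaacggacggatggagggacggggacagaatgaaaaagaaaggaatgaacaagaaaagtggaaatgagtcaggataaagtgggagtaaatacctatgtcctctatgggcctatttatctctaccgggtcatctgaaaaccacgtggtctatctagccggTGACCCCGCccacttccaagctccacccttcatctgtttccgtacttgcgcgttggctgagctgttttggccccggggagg
Psmd12: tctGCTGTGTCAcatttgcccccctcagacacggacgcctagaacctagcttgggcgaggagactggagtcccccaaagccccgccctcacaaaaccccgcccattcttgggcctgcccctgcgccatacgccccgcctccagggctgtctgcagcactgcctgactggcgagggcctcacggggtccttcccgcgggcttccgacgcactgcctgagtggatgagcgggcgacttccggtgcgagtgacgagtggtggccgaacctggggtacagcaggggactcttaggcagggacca
Psmb5: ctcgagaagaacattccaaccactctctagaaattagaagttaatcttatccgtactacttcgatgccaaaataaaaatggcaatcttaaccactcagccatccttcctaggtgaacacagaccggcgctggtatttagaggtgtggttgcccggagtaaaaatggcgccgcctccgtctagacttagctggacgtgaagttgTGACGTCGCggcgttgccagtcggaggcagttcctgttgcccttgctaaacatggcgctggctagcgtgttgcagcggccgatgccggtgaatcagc
The core begins at position -7 from the start in Psme4, -31 in Psmd9, -247 in Psmd12 and -47 in Psmb5. RefSeq windows were matched by symbol for 33 of the 39 genes, with 36 windows in all, and no window was used for Psmb1, Psmb2, Psmb7, Psmc3, Psmd3 and Psmd7. The core lay in 6 of these 36 windows (16.7%), and in 12.4% of all 32851 windows of this length. The other genes with it were Psmb6 and Psmc6. A CCAAT box, searched as CCAAT or ATTGG, lay in 12 of the 36 windows (33.3%), against 37.4% of all windows. The core GCATGCGC of nuclear respiratory factor 1, with its other-strand form GCGCATGC, lay in 2 (5.56%), those of Psma2 and Psmc5, against 2.71% of all. A match of letters is a description and does not show that a factor binds there.

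Doxorubicin moved proteasome genes in both directions, by small steps. On average over both genotypes, 10 of the 39 were called higher, 14 were called lower and 15 were not called, at an adjusted p under 0.05 in edgeR's quasi-likelihood test with Benjamini-Hochberg adjustment. Over all 12255 genes tested, 33.7% were called higher and 32.6% lower, so the share of proteasome genes called, 61.5%, was near that of all genes, 66.4%. The median log2 fold change of the 39 genes was -0.11, against 0.02 over all genes. Steps of at least 0.5 on the log2 scale were taken by 6 of the 39 genes (15.4%), against 47.4% of all genes tested. The SD of the log2 fold changes was 0.33 over the 39 genes and 1.13 over all genes. Psme2 met the count rule through the group where it was highest. Without Psme2, 9 of 38 genes were called higher, 5 (13.2%) took such steps, and the SD was 0.29. The median SE was 0.07 over the 39 genes and 0.11 over all genes, and genes of like level were not compared. Summed over the 39 genes, the level was 1124 and 1130 CPM in mutant cells with doxorubicin, against 1154 and 1166 CPM in mutant control, and 1139 and 1135 CPM in WT cells with doxorubicin, against 1193 and 1216 CPM in WT control. The summed levels did not overlap between treated and control libraries in either genotype, and treated libraries were the lower ones. As a share of library totals, without TMM factors, the WT libraries overlapped, at 0.123% and 0.116% of counts with doxorubicin, against 0.118% and 0.124% in control. With upper-quartile factors the split was 8 higher and 18 lower, beside 3807 and 4349 of all genes, and with library totals it was 13 higher and 13 lower, beside 4325 and 3716 of all genes. Of the 24 calls, 19 held in every alternative, and the others were those of Psma1, Psma2, Psma5, Psmb4 and Psme2.

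**Figure D1:**
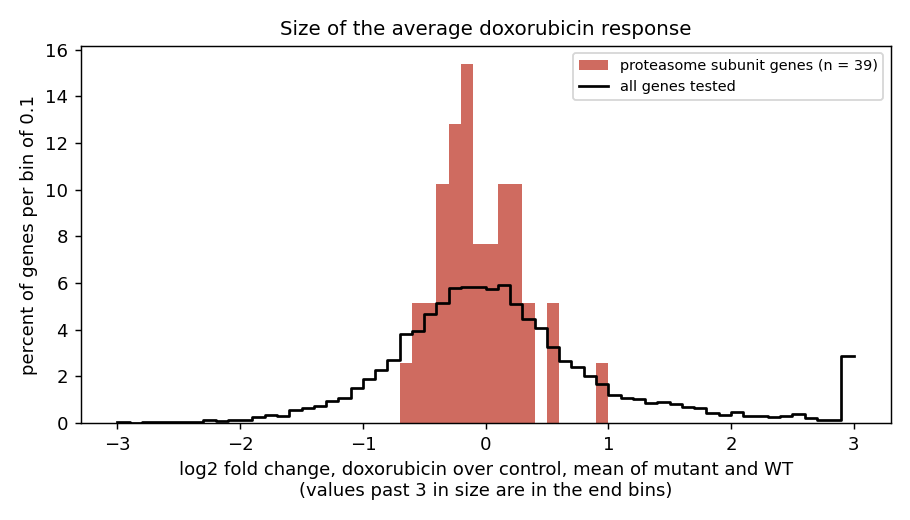
Average doxorubicin response of the proteasome genes (bars, n = 39) and of all 12255 genes tested (line). The x axis is the log2 fold change, doxorubicin over control, averaged over both genotypes, and the y axis is the percent of genes in each bin. The bars lie close to 0, with an SD of 0.33 against 1.13 for all genes.

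Both directions were found within most roles of the complex. The activators gave 3 of 4 genes higher and 1 lower, and the 19S assembly chaperones 2 of 3 higher and 1 lower. Among the higher activators was Psme2, whose few counts met the rule through the group where it was highest. Among the 39 were 9 genes of the 19S base, of which 3 were higher and 3 lower. The 39 also held 8 lid genes, of which none was higher and 6 were lower, with a median log2 fold change of -0.23. Of the 15 genes of the 20S core 2 were called higher and 3 lower, and among the 8 beta subunits 1 was called, Psmb4. Beside these counts stand 33.7% of all genes called higher and 32.6% called lower. They are descriptions of small groups, and differences between them, or from all genes, were not tested.

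**Figure D2:**
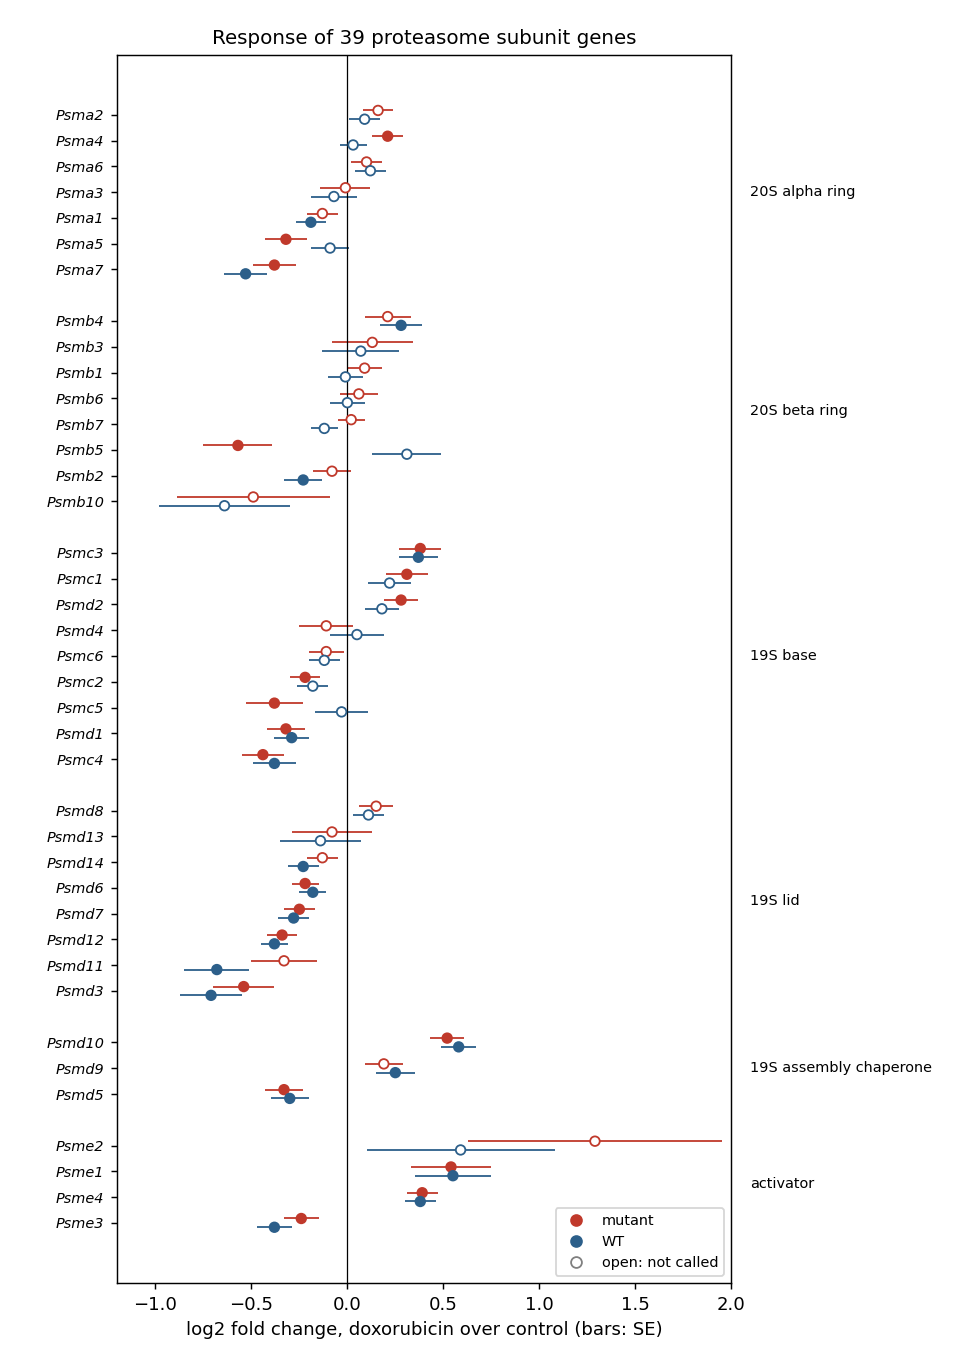
Log2 fold changes, doxorubicin over control, of the 39 genes in mutant (red) and WT cells (blue), ordered by role in the proteasome. Bars are SE from the edgeR fit (n = 2 libraries per group), and open circles were not called. Of the 8 lid genes among the 39, all but 1 lie left of 0 in each genotype, while Psmd10, Psme1 and Psme4 lie right of it in both.

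Of the 4 activator genes, Psme4 and Psme1 rose, Psme3 fell, and Psme2 was called higher at counts near the limit of the rule. Psme4 encodes PA200, a nuclear activator linked to the degradation of acetylated histones. In mutant cells Psme4 had 63.7 and 63.9 CPM with doxorubicin, against 48.9 and 48.1 CPM in control. WT cells had 67.6 and 60.1 CPM of Psme4 with doxorubicin, against 48.9 and 49.1 CPM in control. Treated and control libraries did not overlap in either genotype, and the average log2 fold change was 0.39 ± 0.06 (SE, adjusted p = 2.7e-06, edgeR). Psme1 and Psme2 encode the alpha and beta subunits of PA28, the activator that interferon gamma induces and that aids antigen processing. Psme1 had 2.64 and 2.61 CPM in mutant cells with doxorubicin, against 1.65 and 1.97 CPM in mutant control, and 3.11 and 2.75 CPM in WT cells with doxorubicin, against 1.93 and 2.05 CPM in WT control. All 4 treated libraries were above all 4 controls, and the log2 fold change was 0.54 ± 0.15 (SE, adjusted p = 0.00248, edgeR).

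Psme2 had very low counts, and reached 10 counts only in WT cells with doxorubicin and in WT control A. It thus met the count rule through the group where it was highest, and its direction and the size of its fold change support nothing about the set. There were 7 and 8 counts in mutant cells with doxorubicin, against 4 and 3 counts in mutant control, and 14 and 14 counts in WT cells with doxorubicin, against 10 and 8 counts in WT control. As CPM that was 0.280 and 0.316 against 0.137 and 0.102 in mutant cells, and 0.464 and 0.438 against 0.371 and 0.235 in WT cells. Treated libraries were above controls within each genotype, while WT control A lay above both treated mutant libraries. The log2 fold change was 0.94 ± 0.41 (SE, adjusted p = 0.048, edgeR), and the call was lost without any one of the 8 libraries (adjusted p between 0.054 without WT control A and 0.158 without WT control B). Mouse Psme2 also has a near-identical copy, Psme2b, so its reads are uncertain. Psme3, the nuclear PA28 gamma, was the activator that fell: its log2 fold change was -0.31 ± 0.07 (SE, adjusted p = 0.000332, edgeR), with mean levels of 27.1 CPM against 32.0 CPM in mutant cells and 25.0 CPM against 32.5 CPM in WT cells, doxorubicin against control.

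Of the chaperones that build the 19S base, Psmd10 and Psmd9 rose and Psmd5 fell. Psmd10 encodes gankyrin, which in human cells also binds MDM2 and favours the degradation of p53. Psmd10 had 24.2 and 23.8 CPM in mutant cells with doxorubicin, against 16.5 and 17.1 CPM in mutant control. In WT cells Psmd10 had 24.5 and 25.2 CPM with doxorubicin, against 16.1 and 17.2 CPM in control. The treated libraries lay well above the controls in both genotypes, and the log2 fold change of 0.55 ± 0.07 (SE) had the smallest adjusted p of the 39 genes (2.18e-07, edgeR). Psmd9 had 21.8 and 21.7 CPM in mutant cells with doxorubicin, against 19.8 and 18.3 CPM in mutant control, and 22.7 and 21.0 CPM in WT cells with doxorubicin, against 19.1 and 17.7 CPM in WT control. Its treated libraries were again above all controls, with a log2 fold change of 0.22 ± 0.07 (SE, adjusted p = 0.00714, edgeR). Psmd5 had mean levels of 18.2 CPM against 22.9 CPM in mutant cells and 20.8 CPM against 25.4 CPM in WT cells, and its log2 fold change was -0.31 ± 0.07 (SE, adjusted p = 0.000624, edgeR).

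Genes of the 19S lid fell or were not called. Psmd3, a scaffold subunit of the lid, had 7.52 and 6.95 CPM in mutant cells with doxorubicin, against 8.75 and 12.2 CPM in mutant control, and 4.83 and 6.26 CPM in WT cells with doxorubicin, against 9.14 and 9.04 CPM in WT control. Every treated library was below every control, although the 2 mutant control libraries differed widely. Its log2 fold change of -0.62 ± 0.11 (SE, adjusted p = 4.21e-05, edgeR) was the most negative of the 39. Psmd11, another scaffold subunit, had 3.40 and 3.00 CPM in mutant cells with doxorubicin, against 4.29 and 3.76 CPM in mutant control. WT cells had 2.91 and 2.94 CPM of Psmd11 with doxorubicin, against 4.79 and 4.58 CPM in control. Treated libraries lay below controls in both genotypes, and the average log2 fold change was -0.50 ± 0.12 (SE, adjusted p = 0.000916, edgeR). Psmd12, the lid gene whose promoter is shown above, averaged 56.6 CPM against 71.6 CPM in mutant cells and 58.7 CPM against 76.5 CPM in WT cells, doxorubicin against control, a log2 fold change of -0.36 ± 0.05 (SE, adjusted p = 3.96e-06, edgeR). Psmd6, Psmd7 and Psmd14, the deubiquitinase of the lid, were called lower too, with log2 fold changes between -0.27 and -0.18. Psmd13 and Psmd8 were not called, at log2 fold changes of -0.11 and 0.13.

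The 19S base split. Psmc1 and Psmc3 are ATPases of the ring that were called higher, and Psmd2, a large scaffold subunit that binds ubiquitin receptors, was too. Psmc3 had 14.8 and 16.5 CPM in mutant cells with doxorubicin, against 11.8 and 12.2 CPM in mutant control, and 16.7 and 16.0 CPM in WT cells with doxorubicin, against 12.2 and 13.0 CPM in WT control. Psmc1 had 13.2 and 11.7 CPM in mutant cells with doxorubicin, against 10.3 and 9.79 CPM in mutant control, and 13.1 and 12.1 CPM in WT cells with doxorubicin, against 10.7 and 10.9 CPM in WT control. All treated libraries were above all controls for both ATPases. Their log2 fold changes were 0.38 ± 0.07 for Psmc3 and 0.27 ± 0.08 for Psmc1 (SE, adjusted p = 0.00013 and 0.00584, edgeR). Psmd2 had 34.2 and 35.4 CPM in mutant cells with doxorubicin, against 27.0 and 30.4 CPM in mutant control, and 35.4 and 33.2 CPM in WT cells with doxorubicin, against 28.9 and 31.7 CPM in WT control. The libraries again did not overlap, at a log2 fold change of 0.23 ± 0.06 (SE, adjusted p = 0.00339, edgeR). The ATPases Psmc4 and Psmc2 and the scaffold gene Psmd1 were called lower, at log2 fold changes of -0.41, -0.20 and -0.31. The remaining ATPases, Psmc5 and Psmc6, and the ubiquitin receptor gene Psmd4 were not called, at -0.20, -0.11 and -0.03. ATPases of one ring thus lay on both sides of 0.

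In the alpha rings of the 20S core, Psma7 took the largest step. In mutant cells Psma7 had 28.2 and 29.4 CPM with doxorubicin, against 36.7 and 38.0 CPM in control. WT cells had 22.3 and 31.1 CPM of Psma7 with doxorubicin, against 39.4 and 38.1 CPM in control. The treated libraries were below the controls in both genotypes, with WT doxorubicin A far below B, and the log2 fold change was -0.46 ± 0.08 (SE, adjusted p = 2.57e-05, edgeR). Psma2 had 53.1 and 53.2 CPM in mutant cells with doxorubicin, against 48.6 and 46.5 CPM in mutant control, and 49.8 and 50.9 CPM in WT cells with doxorubicin, against 47.1 and 47.8 CPM in WT control. The treated libraries were above the controls, but the step of 0.12 ± 0.05 on the log2 scale (SE, adjusted p = 0.0484, edgeR) lost its call without any one of the 8 libraries, at adjusted p between 0.0649 without WT doxorubicin A and 0.14 without mutant control B. Psma1 and Psma5 were called lower at log2 fold changes of -0.16 and -0.20. The call of Psma1 was lost without WT doxorubicin A (adjusted p = 0.0545, edgeR), mutant control B (0.0849) or mutant doxorubicin B (0.0518), and that of Psma5 without WT control B (0.0596), mutant control A (0.0659) or mutant doxorubicin A (0.056). Psma3, Psma4 and Psma6 were not called on average, at log2 fold changes from -0.04 to 0.12.

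Of the beta subunits, Psmb4, a structural subunit, was called higher. Psmb4 had 13.1 and 13.8 CPM in mutant cells with doxorubicin, against 10.4 and 12.9 CPM in mutant control, and 13.1 and 13.6 CPM in WT cells with doxorubicin, against 10.9 and 11.1 CPM in WT control. Mutant control B came close to the treated libraries, and the log2 fold change was 0.25 ± 0.08 (SE, adjusted p = 0.0117, edgeR), with the call lost without mutant control A (0.17, adjusted p = 0.0904). The catalytic subunits of the standard proteasome are Psmb6 (caspase-like), Psmb7 (trypsin-like) and Psmb5 (chymotrypsin-like), and none of them was called on average, at log2 fold changes of 0.03, -0.05 and -0.13. Psmb10, the catalytic subunit that replaces Psmb7 in the immunoproteasome, was scarce, with 9 and 19 counts in mutant cells with doxorubicin, against 23 and 23 counts in mutant control, and 19 and 26 counts in WT cells with doxorubicin, against 31 and 38 counts in WT control. In CPM these were 0.360 and 0.751 against 0.789 and 0.779 in mutant cells, and 0.629 and 0.813 against 1.15 and 1.11 in WT cells. Treated libraries were below controls within each genotype, but the log2 fold change of -0.57 ± 0.26 (SE) was not called (adjusted p = 0.0622, edgeR), except without mutant doxorubicin B (-0.88, adjusted p = 0.0185), with upper-quartile factors or with limma-voom. The structural genes Psmb1, Psmb2 and Psmb3 were not called on average, at log2 fold changes from -0.16 to 0.10. The other immunoproteasome genes stood outside the rule: Psmb9 had 3 and 5 counts in mutant cells with doxorubicin, against 0 and 0 in mutant control, and 10 and 17 counts in WT cells with doxorubicin, against 1 and 1 in WT control, and Psmb8 had 0 to 6 counts in every library.

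**Figure D3:**
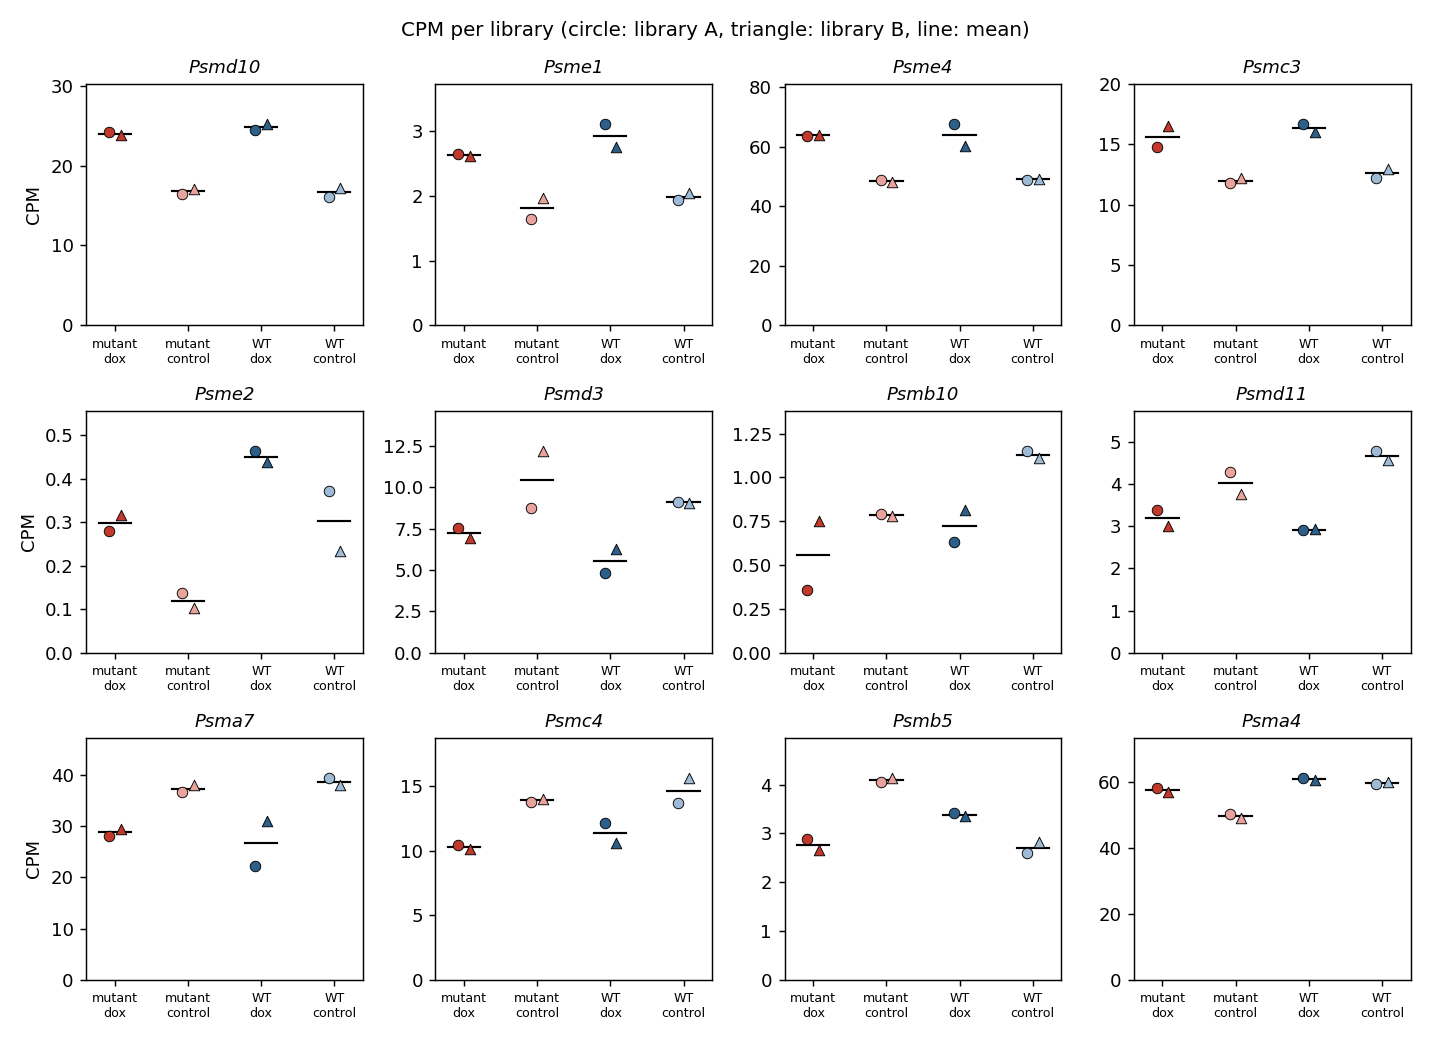
CPM per library of 12 proteasome genes, with a circle for library A, a triangle for library B and a line at the mean of the 2 libraries of a group. For Psmd10, Psme1, Psme4 and Psmc3 all treated libraries lie above the controls, for Psmd3, Psmd11, Psma7 and Psmc4 all lie below them, and for Psmb5 the order of treated and control libraries differs between mutant and WT cells.

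Some of these genes share sequence with others, and the strand setting of the counting is not given in the sources used here. In a GENCODE annotation 10 of the 39 share exon bases with another gene, and 6 of them, Psma4, Psmb7, Psmc3, Psmd1, Psmd13 and Psme1, with a coding gene on the other strand. Reads of these 6 and of their partners cannot be told apart if strand was not used. Psmd1 also shares exon bases with Gm21972, a coding gene on the same strand, where strand does not separate the reads. The 39 genes lie on 15 chromosomes.

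Of the 39 genes, 26 (66.7%) were called in the same direction in both genotypes or in neither, against 83.7% of all genes tested. In mutant cells 7 of the 39 were called higher with doxorubicin and 13 lower, where 28.3% of all genes tested were called higher and 25.9% lower. WT cells had 6 called higher and 13 lower, where 29.3% of all genes were called higher and 28.1% lower. The median log2 fold change of the 39 was -0.08 in mutant cells and -0.07 in WT cells, with 0.01 over all genes in each. Psmc3, Psmd10, Psme1 and Psme4 were called higher in both genotypes, and Psma7, Psmc4, Psmd1, Psmd3, Psmd5, Psmd6, Psmd7, Psmd12 and Psme3 were called lower in both. None of the 39 was called in opposite directions, beside 2 of all 12255 genes, and 13 (33.3%) were called in neither genotype, near the 36.1% of all genes. The mutant and WT log2 fold changes of the 39 genes had a Pearson r of 0.81 and a Spearman rho of 0.81. This is a description across genes that share libraries, and r over all genes tested was 0.91. Both values for the 39 include Psme2, at 1.29 in mutant cells and 0.59 in WT cells. They were not computed without it. The median absolute difference of the 2 responses on the log2 scale was 0.06 over the 39 genes, against 0.15 over all genes tested. The median SE of the difference was also smaller, 0.14 against 0.22, and the 39 genes took smaller steps. Genes of like level or like step were not compared.

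Counts within 1 genotype leaned on single libraries. In mutant cells the count of higher genes was 3 without mutant control A, 4 without mutant doxorubicin A and 3 without mutant doxorubicin B, and the count of lower genes was 7 without mutant control A, 6 without mutant control B and 5 without mutant doxorubicin B. In WT cells the higher genes numbered 3 without WT doxorubicin A or without WT control B, and the lower genes 8 without WT doxorubicin B and 5 without WT control B. Calls that held in every alternative were those of Psmc4, Psmd10, Psmd12 and Psme4 in mutant cells, and of Psma7, Psmc3, Psmd3, Psmd10, Psmd11, Psmd12, Psme3 and Psme4 in WT cells. Scaling moved the split as well, to 4 higher and 15 lower in mutant cells with upper-quartile factors and to 7 higher and 7 lower in WT cells with library totals.

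The difference between the mutant and the WT response was called for none of the 39 genes in either direction, where 0.0326% of all genes were called above and 0.0408% below. DESeq2 and limma-voom called none either, and 1 of the 39 (2.56%), Psmb5, had an unadjusted p under 0.05 in edgeR, against 5.69% of all genes. The differences had a median of 0.05 on the log2 scale, and their SEs ran from 0.10 to 0.82 with a median of 0.14. A missed threshold does not show that the responses were the same.

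**Figure D4:**
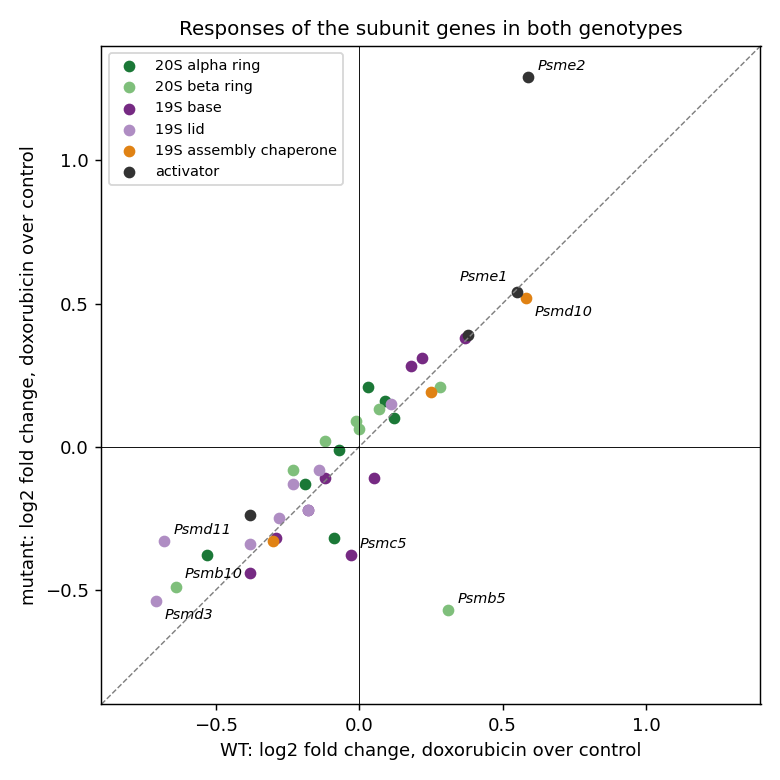
Log2 fold change, doxorubicin over control, in mutant cells (y axis) against WT cells (x axis) for the 39 genes, coloured by role, with a dashed line where both are equal. Most genes lie near the line (r = 0.81, Psme2 included), and Psmb5 lies below it, at -0.57 in mutant cells and 0.31 in WT cells.

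Psmb5 encodes the chymotrypsin-like catalytic subunit, the main target of proteasome inhibitors such as bortezomib. In mutant cells Psmb5 had 2.88 and 2.65 CPM with doxorubicin, against 4.05 and 4.13 CPM in control. WT cells had 3.41 and 3.35 CPM of Psmb5 with doxorubicin, against 2.60 and 2.82 CPM in control. Treated libraries were below controls in mutant cells and above them in WT cells. The log2 fold change was -0.57 ± 0.18 in mutant cells (SE, adjusted p = 0.0102, edgeR) and 0.31 ± 0.18 in WT cells (SE, adjusted p = 0.132, edgeR). The difference of -0.88 ± 0.25 (SE) had an unadjusted p of 0.00201 in edgeR and an adjusted p of 0.334, so it was not called. These rest on 72 and 67 counts in mutant cells with doxorubicin, 118 and 122 counts in mutant control, 103 and 107 counts in WT cells with doxorubicin and 70 and 96 counts in WT control. The call in mutant cells was lost without mutant doxorubicin B (-0.50, adjusted p = 0.0735) and in DESeq2 (adjusted p = 0.0627). Exons of Psmb5 overlap the microRNA gene Mir686 in the annotation, and the genome holds a pseudogene copy, Psmb5-ps.

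Mutant and WT cells were also compared at the same treatment. In control cells 1 of the 39 genes was called higher in mutant than in WT cells and 1 lower, where 2.75% of all genes were called higher and 3.17% lower. The gene called higher was Psmb5, at a log2 fold change of 0.59 ± 0.17 (SE, adjusted p = 0.0456, edgeR). The gene called lower was Psma4, an alpha ring subunit, at -0.26 ± 0.07 (SE, adjusted p = 0.039, edgeR). Psma4 had 50.2 and 49.2 CPM in mutant control, against 59.3 and 59.9 CPM in WT control. With doxorubicin Psma4 had 58.0 and 56.8 CPM in mutant cells, against 61.1 and 60.7 CPM in WT cells. The libraries did not overlap at either treatment, although the log2 fold change with doxorubicin was -0.09 ± 0.07 (SE, adjusted p = 0.592, edgeR). Both calls in control cells were fragile. That of Psmb5 was lost without any one of the 4 control libraries (adjusted p = 0.212 without WT control A, 0.16 without WT control B, 0.171 without mutant control A and 0.219 without mutant control B), and that of Psma4 without any one of these (0.119, 0.227, 0.213 and 0.285 in the same order) and without mutant doxorubicin A (0.0552) or B (0.0545). With doxorubicin none of the 39 genes was called in mutant against WT cells, where 3.92% of all genes were called higher and 3.82% lower, and 2 (5.13%) had an unadjusted p under 0.05 in edgeR, against 19.6% of all genes, while DESeq2 and limma-voom called none. Without WT doxorubicin B, Psma7 was called higher in mutant than in WT cells (0.37, adjusted p = 0.0259). The median log2 fold change, mutant over WT, was -0.06 in control cells and -0.03 with doxorubicin.

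Several genes that assemble, feed or regulate the proteasome changed with doxorubicin too. A list of 33 tested genes of proteasome assembly, ubiquitin supply, shuttling and transcriptional control had 10 called higher (30.3%) and 14 lower (42.4%) on average, against 33.7% and 32.6% of all genes, and 10 of the 33 genes (30.3%) had called steps of at least 0.5 on the log2 scale, beside 47.4% of all genes tested that took a step of this size. The difference between this list and the subunits was not tested. Psmg1, a chaperone that assembles the alpha ring, had 2.88 and 3.32 CPM in mutant cells with doxorubicin, against 6.48 and 6.98 CPM in mutant control, and 2.78 and 3.88 CPM in WT cells with doxorubicin, against 6.95 and 6.42 CPM in WT control. The treated levels were all well below the controls, at a log2 fold change of -1.06 ± 0.12 (SE, adjusted p = 9.16e-08, edgeR). The shuttle genes Rad23b and Ubqln2, whose proteins carry ubiquitin-tagged substrates to the proteasome, fell by 0.70 and 0.77 on the log2 scale. Rad23b had 263.6 and 253.5 CPM in mutant cells with doxorubicin, against 416.5 and 406.8 CPM in mutant control, and 200.7 and 213.4 CPM in WT cells with doxorubicin, against 347.3 and 334.7 CPM in WT control. Uchl5, a deubiquitinase bound to the 19S cap, fell by 0.55.

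Other genes of the list were called higher. Ufd1l, a cofactor of the unfoldase p97, rose by 0.68 ± 0.06 (SE) and Zfand2a, a stress-induced protein that binds the proteasome, by 0.60 ± 0.10 (SE), with adjusted p of 1.81e-09 and 1.38e-05 in edgeR.

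The factors that act on antioxidant response elements differed. Nfe2l1 had 33.0 and 33.0 CPM in mutant cells with doxorubicin, against 31.2 and 31.7 CPM in mutant control, and 29.5 and 30.5 CPM in WT cells with doxorubicin, against 31.3 and 29.4 CPM in WT control. Its libraries overlapped in WT cells, and the log2 fold change of 0.03 ± 0.06 (SE, adjusted p = 0.712, edgeR) was not called. Nfe2l1 is controlled largely at the protein level, which RNA does not show. Nfe2l2 had 132.8 and 120.2 CPM in mutant cells with doxorubicin, against 69.0 and 73.3 CPM in mutant control, and 144.5 and 141.6 CPM in WT cells with doxorubicin, against 78.0 and 86.8 CPM in WT control. It was higher in every treated library, at a log2 fold change of 0.81 ± 0.05 (SE, adjusted p = 1.93e-11, edgeR). Keap1, which targets the NFE2L2 protein for degradation, had 4.32 and 4.11 CPM in mutant cells with doxorubicin, against 7.48 and 7.83 CPM in mutant control, and 4.83 and 3.97 CPM in WT cells with doxorubicin, against 6.57 and 7.92 CPM in WT control, a log2 fold change of -0.79 ± 0.11 (SE, adjusted p = 1.24e-06, edgeR). The 6 subunit genes with an antioxidant response element core in the promoter window had average log2 fold changes of 0.39 (Psme4), 0.22 (Psmd9), 0.03 (Psmb6), -0.11 (Psmc6), -0.13 (Psmb5) and -0.36 (Psmd12). They thus lay on both sides of 0, as the whole set did.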

How the data were processed

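RNA was measured in 8 libraries of mouse embryonic fibroblasts. The authors deposited unnormalized counts for each gene name. Reads were aligned to mm9 with Bowtie2 and counted with HTSeq, per the submitters' processing notes, and the versions, the annotation and the strand setting are not given in the sources used here. Both 3' sequencing and a kit for exome capture are named in the labels, so how counts scale with transcript length is unknown and levels were not compared between genes.

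The software was edgeR 4.0.16 and limma 3.58.1 under R 4.3.3. TMM factors scaled the genes that filterByExpr kept (at least 10 counts by group, 15 in total), and 1 quasi-likelihood fit held all 8 libraries, with a coefficient for every group and 4 residual degrees of freedom. All 39 genes passed the filter. Contrasts were the response to doxorubicin in mutant and WT cells, their difference, their mean, and mutant against WT at each treatment. Tests were two-sided, with Benjamini-Hochberg adjustment over 12255 genes and calls under 0.05. The SE is the log2 fold change divided by the square root of F. Libraries of 1 group differed by more than sampling noise. The chi-square over genes for each degree of freedom was 18.2 in WT cells with doxorubicin and 5.43 to 6.16 in the other groups. The scripts were tested on simulated data.

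Members and gene lists were chosen with earlier results of these data known. Per-library values were given for the 4 largest and 4 smallest average log2 fold changes, members called between genotypes, and members called against the majority direction. From the pathway list, called genes with an average step of at least 0.5 and Nfe2l1 were named, except that a few are left out of the text, and per-library values of some were left out for length. Psmb9 and Psmb8 were added as counts after their values were seen, and Shfm1 as CPM. Alternatives were edgeR with DESeq2 size factors, upper-quartile factors or library totals, DESeq2 1.42.0, limma-voom, no filter, 5 CPM in 2 libraries, only the libraries compared, a replicate block for the library letter, an adjusted p of 0.10 and leaving out each library.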

Additional observations from a re-analysis of the deposited data

Results flagged for a closer look

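Psmb5 was singled out because its libraries moved in opposite directions in the genotypes. Both treated libraries lay below both controls in mutant cells, and above both controls in WT cells. The share of all genes tested with such opposite library orders was not counted. Whether this order is rarer than random spread between so few libraries would give was therefore not tested. The difference, mutant minus WT response, was -0.88 on the log2 scale. It was tested in edgeR, with an unadjusted p of 0.00201 and an adjusted p of 0.334 over all genes, and under the alternatives it ran from -0.95 to -0.82. A cause was not tested. Groups of 2 libraries are too small for a search for single outlying libraries.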

How the results depend on the processing

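No log2 fold change of a called gene changed sign. Among the 39 genes, DESeq2 called 3 higher in WT cells and 8 lower in mutant cells, against 6 and 13 in the edgeR fit, and library totals called 7 lower in WT cells, against 13. In mutant cells upper-quartile factors and no filter each called 4 higher, against 7. The 1 gene higher in mutant control against WT control became 0 with library totals, DESeq2, 5 CPM in 2 libraries or only the libraries compared, and the 1 lower became 0 with upper-quartile factors or no filter. With upper-quartile factors the median log2 fold change of the 39 was -0.14 in mutant cells, -0.12 in WT cells and -0.16 on average, against -0.08, -0.07 and -0.11. With library totals it was -0.01 in WT cells and -0.07 on average, 0.01 for the difference of the responses, and -0.11 in control cells and -0.12 with doxorubicin for mutant over WT, against 0.05, -0.06 and -0.03. A filter of 5 CPM, which left 32 of the 39 genes, gave -0.06 on average and 0.02 for the difference. The causes were not tested beyond these settings.

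Leaving out 1 library at a time, higher genes ran from 3 to 7 and lower genes from 5 to 13 in mutant cells, and from 3 to 6 and 5 to 12 in WT cells. In mutant against WT cells they ran from 0 to 1 in either direction in control cells and from 0 to 1 for higher genes with doxorubicin. The medians ran from -0.11 to -0.03 in mutant cells, -0.11 to -0.04 in WT cells, -0.13 to -0.06 on average, -0.01 to 0.05 for the difference, -0.07 to -0.03 for mutant over WT in control cells and -0.07 to -0.01 with doxorubicin. A group left with 1 library was assumed to vary like the others.

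A replicate block for the library letter called 7 higher and 13 lower in mutant cells, 6 and 13 in WT cells, and 11 and 15 on average, against 10 and 14. It ended the call of Psme2 (adjusted p = 0.0533, edgeR) and added Psma4, Psmd8 and Psmb2 to the average response. The letters share only a name: the correlation of A minus B between groups was -0.04 to 0.08 over the 6 pairs of groups. Low counts, as in Psme2 and Psmb10, limit what these libraries can show for those genes.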
